A study of Arabidopsis thaliana with 28 samples.

Results

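BGLU28 (AT2G44460) encodes a beta-glucosidase of glycoside hydrolase family 1 and was followed here in the root tips of Arabidopsis thaliana seedlings exposed to hydrogen peroxide. It is 1 of 13286 genes that the platform annotation pairs with a probe set of their own on the ATH1 expression array. A single probe set reads it. The annotation does not list 8730 of 22746 probe sets, so a gene without a pairing may still be on the array. The gene was selected on measured values of these arrays, namely its high signal after 3 h on H2O2 against control medium in the elongation zone. Those values are therefore given as a description, without a test.

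Beta-glucosidases of this family release glucose from small conjugates such as hormone glucosides, coumarin and flavonol glycosides, monolignol glucosides and glucosinolates. The members that cleave glucosinolates, the sulfur-rich thioglucosides of the cabbage order, act as myrosinases. BGLU28 is known as a gene whose transcript rises when sulfate is limiting, and it has been linked to the breakdown of glucosinolates under that condition. Hydrogen peroxide is a reactive oxygen species that plant cells both make and detoxify, and its level along the root tip is part of what sets the passage from dividing to elongating cells.

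The seedlings were Columbia-0, the common wild-type accession, and the labels name no transgene or mutation in any group. They were 5 days old, counted from imbibition in one label and from germination in another, when the exposure began. The treated seedlings were moved to Murashige and Skoog medium with 1 mM H2O2, the controls were on that medium without it, and the labels do not say whether the controls were moved as well. Roots were taken at 1 h, 3 h and 6 h on both media and at 0 h from the control only, and each was cut by hand under a microscope into a meristematic zone and an elongation zone. The 2 zones, 2 media and these times make 14 groups of 2 biological replicates, each pooled from 30 roots, so 28 arrays in all.

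The values were linear signal intensities, which the scaling of each array brought to a trimmed mean of 250.0. Between 24.5% and 31.1% of probe sets per array were under a signal of 16. Array medians ran from 68.3 to 76.1 in the meristematic zone and from 49.3 to 59.5 in the elongation zone. The zones carried their labels' markers on control medium over 0 h, 1 h and 6 h. All 6 measured meristem genes had a lower signal in the elongation zone, as did 30.8% of all probe sets. All 6 measured elongation and root hair genes had a higher one, as did 24.5% (limma's moderated test, adjusted p under 0.05). The summed signal of the meristem genes ran from 1236 to 2547 on the meristematic zone arrays and from 222 to 540 on the elongation zone arrays. The summed signal of the elongation genes ran from 176 to 658 and from 6723 to 16213 on the same arrays.

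In both zones the BGLU28 signal was low on control medium and after 1 h on H2O2, and higher on every array after 3 h and 6 h on H2O2 than on the control arrays of the same zone and time. Over the 20 arrays of the control groups and the groups at 1 h on H2O2, it lay between 2.26 and 79.4, with a median of 18.04. Over the 8 arrays at 3 h and 6 h on H2O2 it lay between 48.2 and 2318. The highest group mean was that of the elongation zone after 3 h on H2O2, the group for which the gene was chosen.

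**Figure D1:**
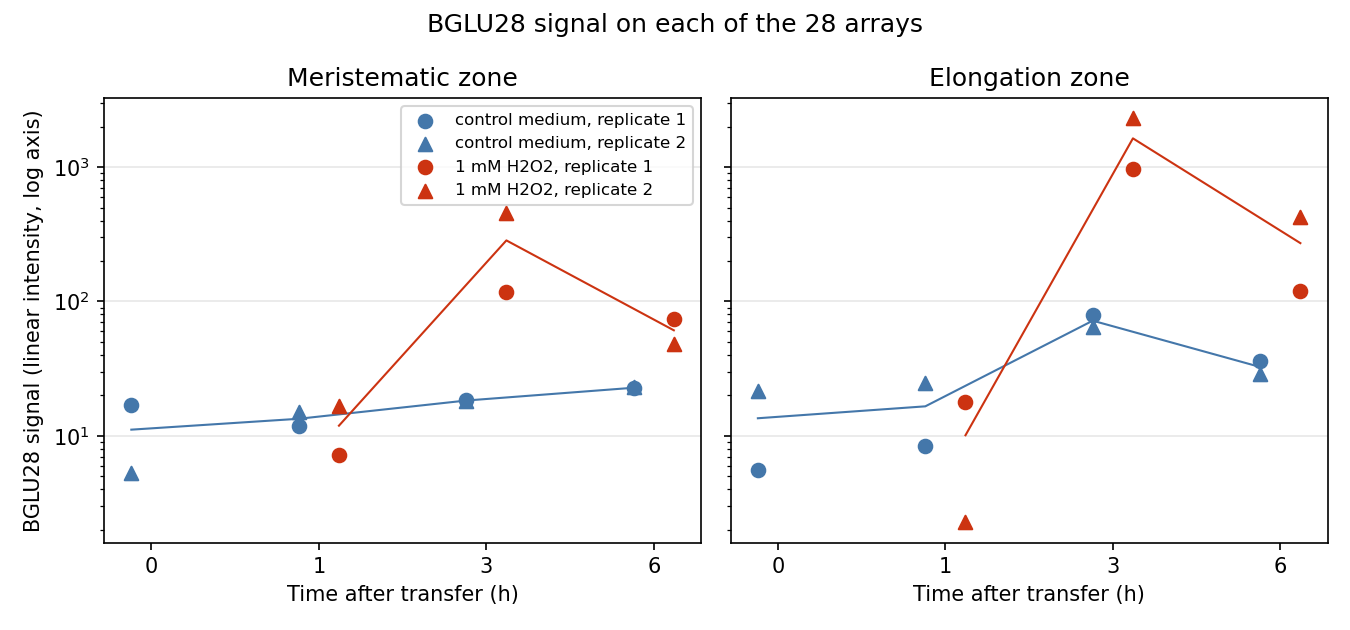
BGLU28 signal (linear intensity, log axis) on each of the 28 arrays against time (h), for the meristematic zone on the left and the elongation zone on the right. The axis is titled time after transfer, although the labels do not say whether the controls were moved. Circles and triangles are replicates 1 and 2, and lines join group means. The 8 arrays at 3 h and 6 h on H2O2 lie between 48.2 and 2318, and the 4 arrays at 1 h on H2O2 between 2.26 and 17.9.

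In the meristematic zone on control medium, BGLU28 read 16.9 and 5.28 at 0 h, 11.7 and 15.02 at 1 h, 18.4 and 18.2 at 3 h, and 22.5 and 23.0 at 6 h in replicates 1 and 2. The 8 control arrays of this zone thus kept within 5.28 to 23.0. On H2O2 the signals in this zone were 7.15 and 16.6 at 1 h, 117 and 453 at 3 h, and 73.8 and 48.2 at 6 h. The H2O2 and control arrays overlapped at 1 h and did not overlap at 3 h or at 6 h, and the replicates at 3 h were themselves far apart.

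In the elongation zone on control medium, BGLU28 read 5.55 and 21.4 at 0 h, 8.44 and 24.7 at 1 h, 79.4 and 64.5 at 3 h, and 36.2 and 28.8 at 6 h. The control arrays at 3 h were higher than every other control array of either zone, whose 14 signals lay between 5.28 and 36.2. On H2O2 the signals in this zone were 17.9 and 2.26 at 1 h, 963 and 2318 at 3 h, and 119 and 425 at 6 h. Here too the H2O2 and control arrays overlapped at 1 h only.

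The group means followed from these arrays. Those of the meristematic zone were 285 ± 237 (SD, n = 2) at 3 h and 61.0 ± 18.1 (SD, n = 2) at 6 h on H2O2. The corresponding control means were 18.3 ± 0.153 and 22.8 ± 0.330 (SD, n = 2 each). Those of the elongation zone were 272 ± 216 (SD, n = 2) at 6 h on H2O2 and 32.5 ± 5.29 (SD, n = 2) on control medium. The spread between replicates on H2O2 was thus close to the mean itself in 2 of these groups.

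Ordered by mean signal, the lowest 7 groups were the 0 h and 1 h groups on either medium and the meristematic zone control at 3 h, and each overlapped the next in this order. The meristematic zone control at 6 h, the elongation zone control at 6 h and the meristematic zone at 6 h on H2O2 followed in that order. Each was without overlap with the group just before it. The meristematic zone control at 6 h (22.5 to 23.0) did lie within the range of the elongation zone control at 1 h (8.44 to 24.7). The meristematic zone at 6 h on H2O2 overlapped the elongation zone control at 3 h. Next came the elongation zone at 6 h and the meristematic zone at 3 h on H2O2, which overlapped each other, and then the elongation zone at 3 h on H2O2, which overlapped no other group.

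The comparison of H2O2 with control medium asks whether exposure changed the transcript in a zone at a time. It was made with limma on log2(signal + 16), over all 22746 probe sets, so fold changes are on the log2(signal + 16) scale, which understates changes of genes as dim as BGLU28 on control medium. On whole tissue pieces, a change in the share of cells that express the gene and a change of its RNA per cell cannot be told apart.

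At 3 h in the meristematic zone, BGLU28 was 2.87 ± 0.55 (SE) higher on H2O2 on the log2 scale, or 7.29-fold, with a 95% interval of 1.73 to 4.01. This was the largest positive log2 fold change of the 22746 probe sets in that comparison, which the rule for choosing the gene did not use. Its adjusted p was 0.0853 (limma), so it missed the threshold of 0.05 that 9 probe sets (0.0396%) passed. Without replicate 1 on H2O2, which leaves 1 array in that group, the value was 3.77, and without replicate 2 it was 1.96. By p-value it ranked 11 of 22746. The SE of BGLU28 was 2.17 times the median SE of the probe sets. It is pooled over all 14 groups, including the arrays that chose the gene, and is the same wherever 1 group is compared with another. The SD between replicates on the log2 scale was 1.28 on H2O2 and 0.00645 on control medium in the meristematic zone at 3 h. The pooled SE and its interval may therefore understate the uncertainty of this difference.

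At 6 h in the elongation zone, BGLU28 was 2.33 ± 0.55 (SE) higher on H2O2, or 5.05-fold, with a 95% interval of 1.19 to 3.48. This was rank 2 by log2 fold change and rank 53 by p-value among the probe sets. The adjusted p was 0.164 (limma), while 13 probe sets (0.0572%) passed. With the elongation zone arrays alone in the fit, the adjusted p was 0.442 (limma). In that fit 0 probe sets passed for H2O2 against control at 1 h, 3 h or 6 h in this zone. With 1 H2O2 array left, the value was 3.19 without replicate 1 and 1.48 without replicate 2. The difference is large among the probe sets and did not pass the test with all arrays. The SD between replicates on the log2 scale was 1.21 on H2O2 and 0.158 on control medium in these groups. The pooled SE and its interval may understate the uncertainty of this difference as well.

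At 6 h in the meristematic zone the difference was 0.97 ± 0.55 (SE), with an interval of -0.17 to 2.11 and an adjusted p of 0.708 (limma). There 31 probe sets (0.136%) passed. At 1 h the differences were -0.09 in the meristematic zone, where no probe set passed (0%; 511 at an unadjusted p under 0.05), and -0.34 in the elongation zone, where 7 passed (0.0308%). Both had SEs of 0.55 and adjusted p of 1.00 and 0.971 (limma). No difference of BGLU28 was thus detectable at 1 h with these replicates.

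Both H2O2 arrays lay above both control arrays in 3 comparisons that did not choose the gene: the meristematic zone at 3 h, where 16.4% of probe sets showed the same, the meristematic zone at 6 h, with 19.7%, and the elongation zone at 6 h, with 20%. All 3 held together for BGLU28 and for 358 of 22746 probe sets in all, which is 1.57%.

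Averaged over 1 h, 3 h and 6 h in the meristematic zone, BGLU28 was 1.25 ± 0.32 (SE) higher on H2O2, with an adjusted p of 0.171 (limma), where 59 probe sets (0.259%) passed. Averaged over 1 h and 6 h in the elongation zone, it was 1.00 ± 0.39 (SE) higher, with an adjusted p of 0.534 (limma), where 43 (0.189%) passed. Neither mean passed the test with all arrays. With 1 H2O2 array left at 3 h, the meristematic zone mean was 1.55 without replicate 1 and 0.94 without replicate 2.

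For the elongation zone at 3 h, the description is that the signals of 963 and 2318 on H2O2 stood against 79.4 and 64.5 on control medium, a mean of 1641 against 71.9. The log2 fold change was 4.11, or 17.3-fold, the largest of all probe sets at that time and zone. Of all probe sets, 31 (0.136%) passed the test there, 27 of them (0.119%) higher on H2O2. The separation of H2O2 from control arrays in the elongation zone at 3 h was shared by 12.5% of probe sets.

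**Figure D2:**
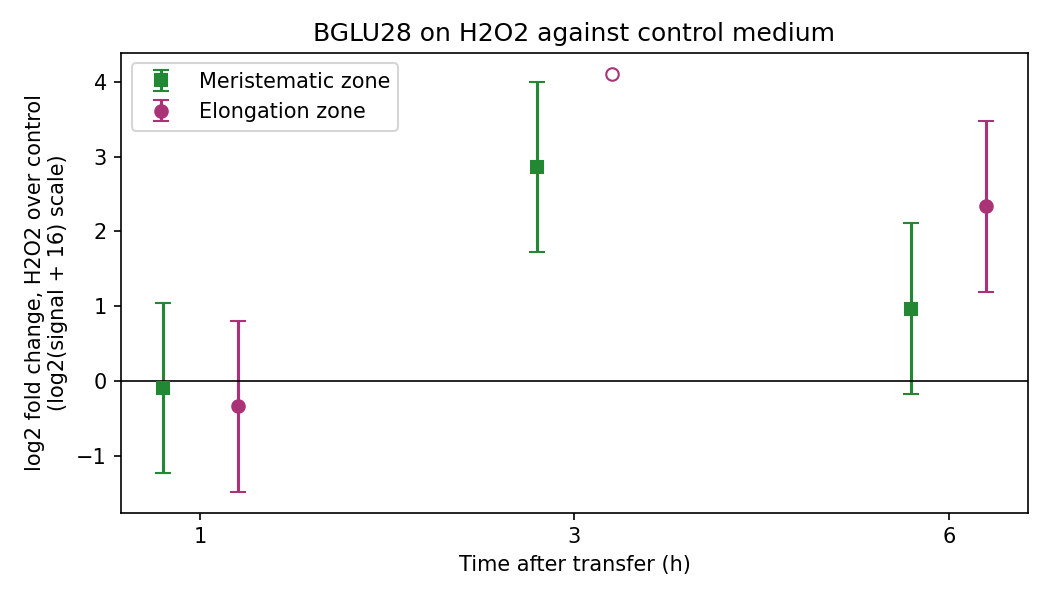
Log2 fold change of BGLU28 on H2O2 over control medium, on the log2(signal + 16) scale, against time (h). Squares are the meristematic zone, circles the elongation zone, and bars the 95% interval from limma, with an SE pooled over all 14 groups. The open circle at 3 h, at 4.11, is the comparison that chose the gene and has no interval; the other values at 3 h and 6 h are 2.87, 0.97 and 2.33.

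The H2O2 series itself was then compared between times, in comparisons added once the values had been seen. From 1 h to 3 h on H2O2, BGLU28 rose in the meristematic zone by 3.19 ± 0.55 (SE) on the log2 scale, or 9.09-fold, with an adjusted p of 0.00775 (limma). It ranked 2 of 22746 by log2 fold change and 33 by p-value in this comparison, in which 120 probe sets (0.528%) passed. Without replicate 1 at 1 h or without replicate 2 at 3 h the adjusted p was 0.133 and 0.140, so the call was lost without either of these arrays.

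From 1 h to 6 h on H2O2, BGLU28 rose in the elongation zone by 3.29 ± 0.55 (SE), or 9.81-fold, with an adjusted p of 0.00234 (limma). It ranked 3 of 22746 by log2 fold change and 71 by p-value, and 390 probe sets (1.71%) passed. Without replicate 2 at 1 h or without replicate 2 at 6 h the adjusted p was 0.0556 and 0.0523. Zone markers differed between the same arrays: all 6 elongation and root hair genes had a positive log2 difference (median 0.67, range 0.29 to 0.99) and all 6 meristem genes a negative one (median -0.42, range -0.69 to -0.01), beside a median of -0.01 over all probe sets, and none of the 12 passed the test. Their part in the BGLU28 value was not tested.

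From 3 h to 6 h on H2O2 the signal in the meristematic zone went from 117 and 453 to 73.8 and 48.2, without overlap. The difference was -1.72 ± 0.55 (SE), the second most negative of the probe sets, with an adjusted p of 0.740 (limma). No probe set passed in this comparison (0%), and 1146 had an unadjusted p under 0.05. The elongation zone signals went from 963 and 2318 to 119 and 425, a log2 difference of -2.63 that was the most negative of all probe sets and is given without a test because the 3 h arrays chose the gene.

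The comparison of zones asks whether the transcript differs between dividing and elongating tissue. On control medium over 0 h, 1 h and 6 h, BGLU28 differed between the zones by 0.18 ± 0.32 (SE, elongation minus meristematic), with an interval of -0.48 to 0.83 and an adjusted p of 0.682 (limma). In that comparison 12581 probe sets (55.3%) passed. With each array centred on its median, the BGLU28 difference was 0.44 (adjusted p = 0.203, limma). At 3 h on control medium, outside this test, the elongation zone read 79.4 and 64.5 and the meristematic zone 18.4 and 18.2.

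After 6 h on H2O2 BGLU28 was higher in the elongation zone by 1.68 ± 0.55 (SE), or 3.21-fold, with an adjusted p of 0.0163 (limma). The signals were 119 and 425 against 73.8 and 48.2. This comparison was also added after the values were seen, and 42.7% of probe sets passed it, so a call there is common among probe sets. The call was lost with a pseudocount of 1 (adjusted p = 0.0746, limma), without replicate 2 of the meristematic zone (1.44, adjusted p = 0.113) and without replicate 2 of the elongation zone (0.83, adjusted p = 0.320). After 1 h on H2O2 the zone difference was -0.14 (adjusted p = 0.883, limma), where 42.5% passed.

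Whether the H2O2 effect itself differed between zones was tested as an interaction. At 6 h it was larger in the elongation zone by 1.37 ± 0.77 (SE), with an interval of -0.25 to 2.98 and an adjusted p of 1.00 (limma), where 1 probe set (0.0044%) passed. At 1 h it was -0.25 ± 0.77 (SE), where none passed (0%; 728 at an unadjusted p under 0.05). At 3 h the difference of the log2 fold changes was 1.24, given as a description. A larger effect in the elongation zone was therefore not detectable with these replicates.

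Control medium alone was followed from 0 h. BGLU28 in the meristematic zone differed from 0 h by 0.15 at 1 h, 0.37 at 3 h and 0.55 at 6 h, each with an SE of 0.55 and adjusted p between 0.898 and 0.993 (limma). Of all probe sets, 0.114%, 0.18% and 0.106% passed at these times. The differences in the elongation zone were 0.15 at 1 h and 0.77 at 6 h (adjusted p = 0.949 and 0.675, limma), where 1.22% and 0.0484% passed. The elongation zone control at 3 h was 1.62 above 0 h on the log2 scale, a description only, and 0.0176% of probe sets passed that comparison.

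Markers of the zones and measures of RNA quality were set beside these values. On the meristematic zone arrays at 3 h, the summed signal of the elongation and root hair genes was 328 and 252 on control medium and 658 and 234 on H2O2. The array at 658, replicate 1, had a BGLU28 signal of 117, and the array at 234, replicate 2, one of 453. Most of the excess in the sum of replicate 1 came from the peroxidase gene PER27, at 367 on replicate 1 and 30.1 on replicate 2. The part of this sum in the BGLU28 values was not tested.

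The same sum at 3 h on elongation zone arrays was 11712 and 16213 on control medium and 16003 and 13746 on H2O2. At 6 h it was 12741 and 13542 on control medium and 15735 and 16051 on H2O2, higher on both H2O2 arrays. The summed meristem signal there was 348 and 282 on control medium and 237 and 238 on H2O2. In the meristematic zone at 6 h the meristem sum was 1699 and 1767 on control medium and 1503 and 1236 on H2O2. Its elongation sum at 6 h was 337 and 289 on control medium and 358 and 374 on H2O2. At 3 h the meristem sums of the 2 media overlapped in both zones. The part of these in the BGLU28 values was not tested. The root cap signal, from the 1 measured root cap gene SKS16, was at most 130 on elongation zone arrays and ran from 122 to 1298 on meristematic zone arrays. In the latter it was 1298 and 857 on control medium at 3 h, 743 and 552 on H2O2 at 3 h, and 122 and 293 on H2O2 at 1 h. SKS16 was thus lower on H2O2 than on control at 3 h and higher at 3 h than at 1 h on H2O2, without overlap, at -0.71 and 1.67 on the log2 scale (adjusted p = 1.00 and 0.370, limma), and the part of this in the BGLU28 values was not tested. GAPDH signal at the 3' end over that at the 5' end, a measure of RNA integrity and amplification, had a log2 ratio of 0.32 and 0.78 on control and 0.45 and 0.67 on H2O2 in the meristematic zone at 3 h. For the elongation zone at 6 h it was 0.10 on both control arrays and 0.13 and 0.12 on H2O2. Over all arrays it ran from 0.17 to 0.78 in the meristematic zone and from -0.38 to 0.32 in the elongation zone.

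The gene family gives the background for BGLU28. Of 47 genes of the family, the platform annotation pairs 21 besides BGLU28 with a probe set of their own. Of these 21, 5 were bright on every array. BGLU23, also called PYK10, the abundant root beta-glucosidase stored in ER bodies, ranged from 6139 to 12723. BGLU15, which hydrolyses flavonol glycosides, ranged from 348 to 1023. BGLU42, which has been linked to coumarin release from roots, ranged from 375 to 935, BGLU16 from 339 to 609 and BGLU25 from 353 to 601.

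The other 16 did not exceed a signal of 53.2 on any array, and their highest arrays ran from 2.72 for BGLU19 to 53.2 for BGLU40. These were BGLU19, BGLU20, BGLU24, BGLU27, BGLU29, BGLU31, BGLU32, BGLU33, BGLU36, BGLU40, BGLU41, BGLU43, BGLU44, BGLU45, BGLU46 and BGLU47. BGLU45 and BGLU46 are known for the hydrolysis of monolignol glucosides. None of these 16 passed the test in any comparison of H2O2 with control.

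Of the 21 genes, BGLU15 alone changed with H2O2, in 1 of the 6 comparisons of zone and time, and 66 of the 22746 probe sets changed in at least 1 of them. BGLU15 in the elongation zone at 3 h read 850 and 839 on H2O2 and 400 and 479 on control medium, without overlap. The rise was 0.92 ± 0.16 (SE) on the log2 scale with an adjusted p of 0.0172 (limma), a call that 0.136% of probe sets shared. With the elongation zone arrays alone in the fit the adjusted p was 0.132, and leaving out replicate 1 on control medium or either replicate on H2O2 gave 0.148 to 0.255.

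BGLU15 in the meristematic zone at 3 h read 678 and 796 on H2O2 and 647 and 522 on control medium, which differ by 0.33 ± 0.16 (SE, adjusted p = 0.989, limma) without overlap. At 6 h the BGLU15 difference was 0.08 in the elongation zone, where the arrays overlapped, and -0.17 in the meristematic zone, where the H2O2 arrays were the lower ones. Higher BGLU15 arrays on H2O2 in both zones were thus seen at 3 h and not at 6 h. At 3 h, 16.4% of probe sets showed this in the meristematic zone and 12.5% in the elongation zone.

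The median log2 fold change of the 21 genes was -0.03 in the meristematic zone at 3 h, with a range of -0.38 to 0.56, beside 0.01 over all probe sets. For the elongation zone at 3 h it was -0.08, with a range of -0.35 to 0.92, beside -0.05 over all probe sets. At 6 h the medians were 0.01 in the meristematic zone and -0.12 in the elongation zone, the latter with a range of -0.40 to 0.47. In the 3 of these comparisons that did not choose BGLU28, its log2 fold changes of 2.87, 0.97 and 2.33 lay above each of the 21. Its 4.11 in the elongation zone at 3 h chose the gene, so its place among the family there is a description.

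**Figure D3:**
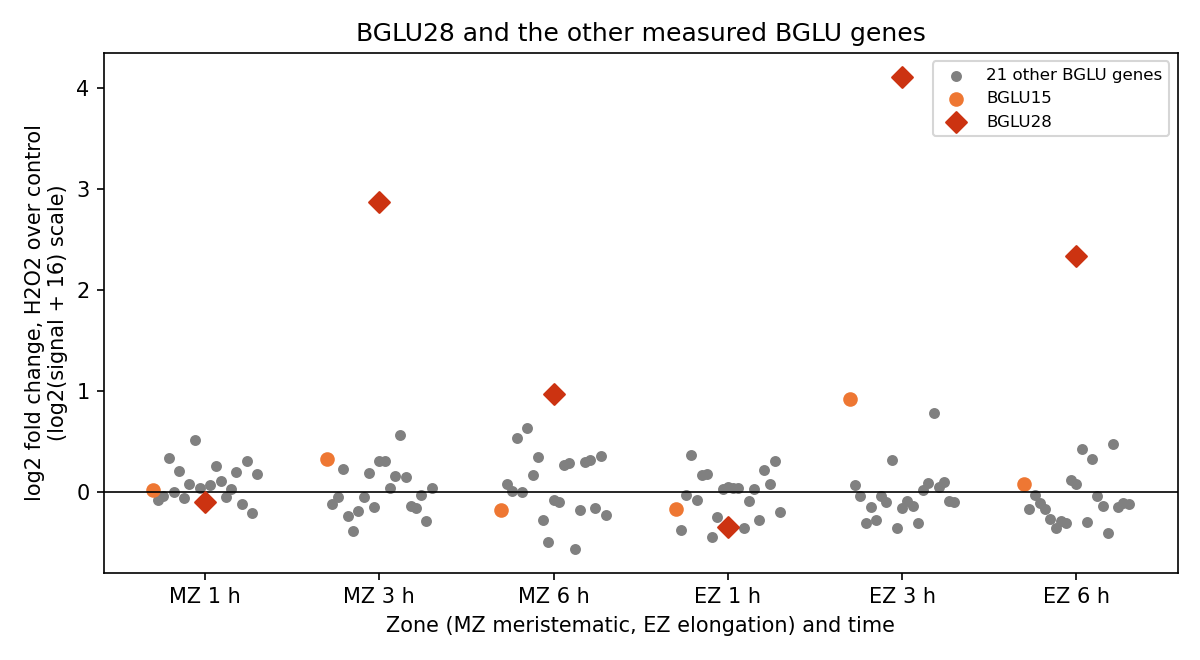
Log2 fold change on H2O2 over control medium, on the log2(signal + 16) scale, for BGLU28 (diamonds) and the 21 other BGLU genes with a probe set of their own (circles, BGLU15 in orange) in the 6 comparisons of zone and time. BGLU28 is above all 21 at 3 h and 6 h in both zones, of which the elongation zone at 3 h chose the gene, and within their range at 1 h; BGLU15 is at 0.92 in the elongation zone at 3 h.

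BGLU28 lies on chromosome 2 between BGLU15 and BGLU29 in the RefSeq gene order, followed beyond BGLU29 by BGLU17 and PEN2, another beta-glucosidase gene. The platform annotation pairs neither BGLU17 nor PEN2 with a probe set of its own, so they were not analysed. BGLU29 read between 1.07 and 34.6 over the 28 arrays and was under 16 on 7 of them. Its H2O2 difference was 0.32 ± 0.38 (SE) in the elongation zone at 3 h and 0.19 ± 0.38 (SE) in the meristematic zone at 3 h, with adjusted p of 0.988 and 1.00 (limma). Of the neighbours of BGLU28, BGLU15 passed the test at 3 h in the elongation zone and BGLU29 did not in either zone.

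Between zones on control medium, 1 of the 21 genes was higher in the elongation zone and 3 were lower, where 24.5% of all probe sets were higher and 30.8% lower. BGLU23 was higher by 0.42 ± 0.10 (SE), with mean signals of 10481 in elongation zone arrays and 7854 in meristematic zone arrays (adjusted p = 0.00133, limma). BGLU15 was lower by -0.80 ± 0.09 (SE), with means of 471 and 829 (adjusted p = 1.92e-07, limma). BGLU42 was lower by -0.70 ± 0.10 (SE), with means of 485 and 790 (adjusted p = 2.23e-06, limma).

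BGLU44, the third lower gene, had means of only 5.56 and 14.01, a difference of -0.49 ± 0.16 (SE, adjusted p = 0.0135, limma). Its call was lost without replicate 1 of the elongation zone at 0 h (adjusted p = 0.0604) or of the meristematic zone at 6 h (adjusted p = 0.0555). Centring each array on its median moved the median log2 difference of all probe sets between zones from -0.02 to 0.24 and turned the family's split from 1 higher and 3 lower to 6 higher and 2 lower. BGLU28 was not among the called genes under either scaling, and BGLU15, BGLU42 and BGLU23 kept their directions and calls.

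Genes of the processes in which BGLU28 is known were read from lists of sulfur deficiency genes, sulfate assimilation, glucosinolate synthesis, glucosinolate breakdown and transport, and ER bodies. The platform annotation pairs few of them with a single-gene probe set. These were 1 of 16 sulfur deficiency genes, 3 of 19 of sulfate assimilation and 3 of 27 of glucosinolate synthesis. Of glucosinolate breakdown and transport 2 of 13 were measured, and of ER bodies 4 of 9. The others were not analysed and may be among the 8730 probe sets that the annotation does not list. With the markers of meristem, elongation zone and root cap, 26 genes outside the family were measured. None of the 26 passed the test in any of the 6 comparisons of H2O2 with control, where 0 to 0.136% of probe sets did so.

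SDI2, a gene that sulfate starvation induces and that is known for holding back glucosinolate synthesis, was the measured member of its list. At 3 h in the meristematic zone it read 311 and 586 on H2O2 and 253 and 293 on control medium, a log2 difference of 0.62 ± 0.39 (SE, adjusted p = 1.00, limma). At 6 h there it read 463 and 366 against 238 and 181, a difference of 0.93 ± 0.39 (SE, adjusted p = 0.533, limma). The H2O2 arrays were above the control arrays both times, as for 16.4% of probe sets at 3 h and 19.7% at 6 h. SDI2 arrays on H2O2 and control medium overlapped in the elongation zone at 3 h and at 6 h, with differences of 0.25 and 0.15.

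SDI2 also moved with time. On control medium its mean went from 101 at 0 h to 273 at 3 h in the meristematic zone and from 149 to 378 in the elongation zone, differences of 1.40 and 1.27 with adjusted p of 0.205 and 0.201 (limma). On H2O2 it rose from 67.0 and 81.9 at 1 h to 311 and 586 at 3 h in the meristematic zone, by 2.30 ± 0.39 (SE, adjusted p = 0.00716, limma). From 1 h to 6 h on H2O2 it rose in the elongation zone by 1.77 ± 0.39 (SE, adjusted p = 0.0218, limma). BGLU28 passed in the same 2 time comparisons on H2O2, as did 0.528% and 1.71% of probe sets. These compare times and not media, and SDI2 passed in no comparison of H2O2 with control.

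Between zones on control medium, 4 of the 13 genes of these 5 lists passed the test, beside 55.3% of all probe sets. The glucosinolate transporter GTR1 was higher in the elongation zone by 1.63 ± 0.14 (SE), and NAI2, which forms ER bodies, by 0.83 ± 0.10 (SE). The glucosinolate transporter GTR2 was lower by -0.63, and APS3, an ATP sulfurylase of sulfate assimilation, by -0.73.

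The genes whose profile was most like that of BGLU28 were ranked by Pearson's r of log2(signal + 16) over the 28 arrays, among 6456 single-gene probe sets whose group means span at least 1 log2 unit. The arrays of a group share their condition, and the 2 arrays that chose BGLU28 weigh heavily, so these correlations are descriptions. The median r was -0.17, and 1% of the genes had an r above 0.56. The r of the 21 other BGLU genes with BGLU28 lay between -0.32 and 0.32.

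HL (AT5G54390), which encodes a phosphatase of the HAL2 type that removes the adenosine bisphosphate left by sulfation reactions, came first with r = 0.82 and a Spearman's rho of 0.75. Its r was 0.75 over the 26 arrays without the elongation zone at 3 h on H2O2 and 0.89 over the 14 group means. HL read 358 and 509 on H2O2 and 257 and 232 on control medium in the meristematic zone at 3 h, a difference of 0.77 ± 0.19 (SE, adjusted p = 0.347, limma). At 3 h in the elongation zone it read 440 and 516 against 262 and 260, a difference of 0.83 ± 0.19 (SE, adjusted p = 0.151, limma). With H2O2 higher, the groups did not overlap in either zone, as for 16.4% (meristematic) and 12.5% (elongation) of probe sets. Neither difference passed the test, and both are descriptions, since these arrays picked HL.

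At 1 h in the elongation zone HL read 156 and 163 on H2O2, below the 315 and 188 on control medium, whereas the BGLU28 arrays of these groups overlapped. HCT (AT5G48930), the hydroxycinnamoyl transferase of lignin synthesis, came second with r = 0.76, a rho of 0.74 and an r of 0.70 without those arrays. Its mean was 574 on H2O2 and 419 on control medium in the elongation zone at 3 h, and its differences from control reached at most 0.42 on the log2 scale.

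**Figure D4:**
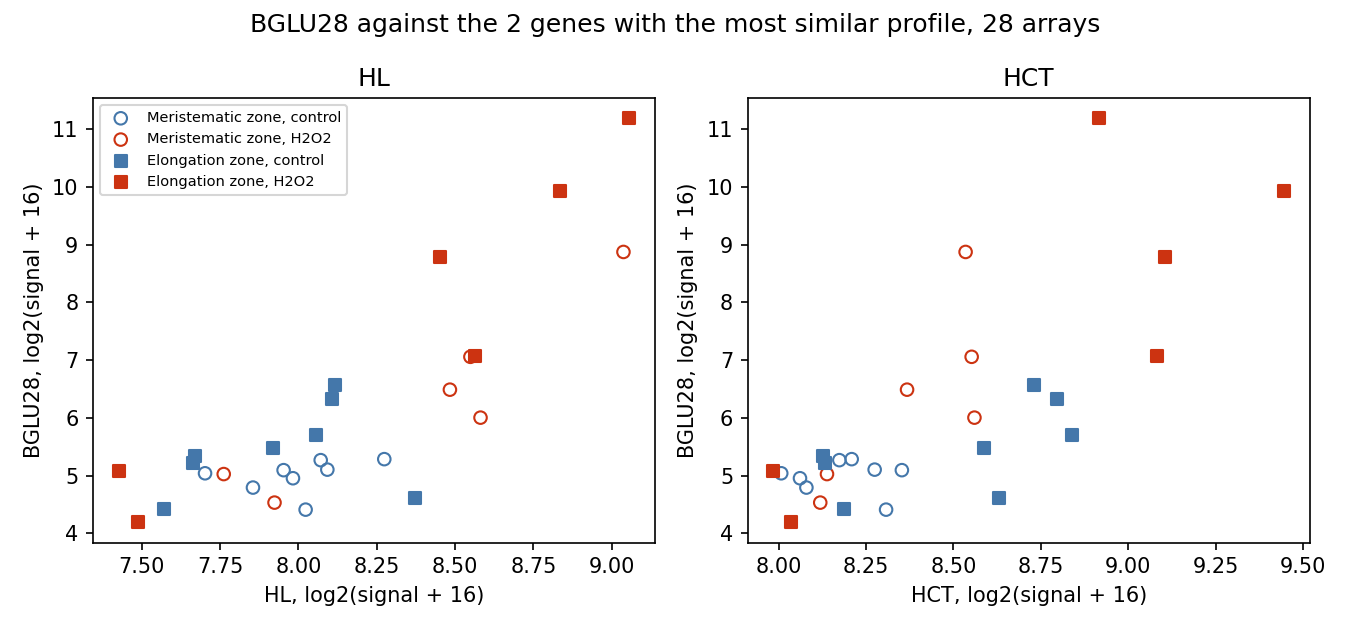
Log2(signal + 16) of BGLU28 against that of HL (left) and HCT (right) on the 28 arrays, with circles for the meristematic zone, squares for the elongation zone, blue for control medium and red for H2O2. Pearson's r is 0.82 for HL and 0.76 for HCT, and the 2 highest BGLU28 points are the elongation zone arrays at 3 h on H2O2, without which r is 0.75 and 0.70.

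The remaining 6 of the 8 most similar genes were AT4G33540, AT1G60750 of the aldo-keto reductases, AT2G44300, AT5G51830, AT1G77280 and the isoflavone reductase-like AT1G75280, with r between 0.70 and 0.74. Without the elongation zone arrays at 3 h on H2O2, 3 of the 8 stayed among the top 8, and over group means 7 did. Of the 8 genes, only AT1G77280 was called for H2O2 against control, in the mean of 1 h and 6 h in the elongation zone. It was at 0.81 ± 0.14 (SE) there, where 43 probe sets (0.189%) passed. The same arrays picked the 8 genes for their likeness to BGLU28, so this call is a description. The mean of BGLU28 in the same comparison was 1.00 ± 0.39 (SE) and did not pass.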

How the data were processed

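RNA from hand-cut root zones was amplified by a two-cycle protocol and hybridised to 28 ATH1 arrays, per the labels. The deposited values were linear signal intensities, 1 for each probe set on an array. MAS5 and GCRMA are named in the submitters' processing notes; each array had a trimmed mean near 250.0 (2% trimmed at each end), and which tool made the deposited intensity values was not stated. No probe-level data or detection calls were used.

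From these, log2(signal + 16) was computed here without further normalization. The 64 control probe sets were left out, leaving 22746. The platform annotation pairs 13513 with 1 gene, 503 with several and does not list 8730; 13436 of the single-gene probe sets matched RefSeq and gave 13286 genes. Genes with several probe sets were represented by the brightest. All 14 groups entered 1 limma fit (3.58.1, R 4.3.3; eBayes with trend, 14 residual degrees of freedom, prior 5.6), with Benjamini-Hochberg adjustment over all 22746, and a call is an adjusted p under 0.05. The fit was tested on simulated data. Precision is limited by 2 arrays per group.

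BGLU28, the 9 gene lists (154 entries, 48 measured) and the tests were chosen with earlier results of these data known. Named genes were BGLU28, all single-gene BGLU genes, up to 4 called members of each other list by log2 fold change, and the 8 most similar profiles. Added after the values were seen, and not covered by that rule, are the values of SDI2 outside its calls, of BGLU28's time and zone comparisons on H2O2, and of PER27. Alternatives were other pseudocounts, quantile normalization, median centring, a filter on dim probe sets, each zone alone, a replicate block and leaving out each array. An exact permutation of BGLU28 within times was unplanned.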

Additional observations from a re-analysis of the deposited data

How the results depend on the processing

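The zone differences of BGLU15, BGLU23 and BGLU42 kept their calls in all 12 fits without 1 array, whereas the H2O2 results below did not all do so. Leaving out 1 array moved the log2 difference of BGLU28 between H2O2 and control over 1.96 to 3.77 at 3 h in the meristematic zone. Such a fit leaves 1 array in a group, without a spread between its replicates, so these ranges are effect sizes only. The difference moved over 1.48 to 3.19 at 6 h in the elongation zone and over 0.94 to 1.55 for the mean over times in the meristematic zone. At 3 h in the elongation zone it moved over 3.48 to 4.74, and a pseudocount of 64 gave 3.53.

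Differences near 0 changed sign when 1 array was left out. At 1 h the H2O2 difference ran over -0.34 to 0.15 in the meristematic zone and -0.79 to 0.10 in the elongation zone, and the interaction over -0.69 to 0.20. From 0 h to 1 h on control medium the ranges were -0.17 to 0.46 and -0.25 to 0.55. The zone difference at 1 h on H2O2 ran over -0.59 to 0.30 and was 0.18 with median centring; the cause was not tested.

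With 1 array left out, the calls added after the values were seen ranged over 2.28 to 4.09 from 1 h to 3 h on H2O2 in the meristematic zone, 2.44 to 4.15 from 1 h to 6 h in the elongation zone, and 0.83 to 2.54 between zones at 6 h on H2O2, where a pseudocount of 1 gave 1.90; each was lost in 2 of 4 such fits. Pseudocounts of 64 and 1 gave 2.01 and 4.27 for the first and 2.02 and 4.85 for the second, with the calls kept. An exact permutation within times gave p = 0.037 for the meristematic zone mean of 1.25 (two-sided, 216 arrangements, smallest possible 0.00926) and 0.278 for the elongation zone mean (smallest possible 0.0556).

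The replicate numbers are not said to mark a shared batch, and the deviations of same-numbered arrays correlated between -0.0199 and 0.353. With the replicate number as a block, BGLU28 at 3 h in the meristematic zone stayed 2.87 with an adjusted p of 0.0202 (limma), past the threshold; at 6 h in the elongation zone the adjusted p was 0.0664. Probe sets called with the block numbered 6, 37 and 115 at 1 h, 3 h and 6 h in the meristematic zone against 0, 9 and 31 without it, and 38, 67 and 54 against 7, 31 and 13 in the elongation zone.

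The count of other BGLU genes changed by H2O2 ran over 0 to 1, since BGLU15 at 3 h in the elongation zone lost its call in 3 of the 4 fits without 1 array (adjusted p up to 0.255). Their count between zones ran over 3 to 6 and was 8 with median centring, under which BGLU44 was at -0.22 (adjusted p = 0.239). Of the other list members, 0 to 1 changed with H2O2. A fit of 1 zone alone could not be run for comparisons between zones.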
